A study of Homo sapiens with 6 samples.

Results

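Transcripts of fatty acid oxidation and ketogenesis were followed in Huh7, a long-established cell line from a human hepatocellular carcinoma, on 3 arrays of control cells and 3 arrays of cells labelled as KCa3.1 silenced or KCa3.1 knockdown. KCa3.1 is a potassium channel of intermediate conductance that calcium opens. The genes were taken from a list of 32 enzymes, carriers, fatty acid binding proteins and regulators, through all probe sets whose platform gene symbol is on the list. Of these genes 31 were measured, by 79 probe sets, out of 18132 genes and 49293 probe sets in all. ACAD11 is not analysed here. All cells were in logarithmic growth, and the medium was changed the day before RNA was taken. How the channel was silenced, what the control cells received and whether replicates were separate cultures are not given in the sources used here, so p-values measure only the spread between these arrays, which may be technical.

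In fatty acid oxidation, a fatty acid is bound to coenzyme A, enters the mitochondrial matrix through the carnitine shuttle, and is shortened in repeated cycles of dehydrogenation, hydration, a second dehydrogenation and thiolytic cleavage. Peroxisomes run a parallel cycle with their own enzymes, which starts with an oxidase and handles very long, branched and bile acid side chains. In liver the acetyl-CoA that results can be turned into ketone bodies.

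Values are log2 array signals relative to a baseline of each probe set, averaged over the probe sets of a gene. They carry no expression level, so no gene can be called strong or weak, levels cannot be compared between genes, and the hepatocyte origin of the line could not be checked by level. Differences are silenced minus control, from limma fitted over all genes, and a gene was called at an adjusted p (Benjamini-Hochberg) under 0.05. As in any bulk sample, fewer cells of a type and less RNA per cell cannot be told apart. KCNN4, which encodes KCa3.1, did not bear out the label. It stood at -0.006, 0.126 and -0.073 in the control arrays and at -0.055, 0.089 and 0.011 in the silenced arrays, a change of -0.0003 with a 95% interval of -0.16 to 0.16 (limma adjusted p = 0.999, two-sided exact permutation p = 1, smallest possible 0.1). All directions below are therefore between arrays as labelled. Arrays of 1 label correlated with r of 0.406 to 0.67 over probe sets, and silenced replicate 1 had the lowest values with its own group, 0.406 and 0.455.

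In the arrays labelled silenced, 5 of the 31 genes were higher and 3 were lower, and the other 23 did not pass. The higher genes were FABP1, PPARGC1A, DECR2, ACADM and BDH1, and the lower genes were CPT1A, ACOX3 and ACOX2. That is 25.8% called, where 13.3% of all genes were called, 7.14% higher and 6.19% lower. The genes were chosen with earlier results of these data known, so these shares are a description. The median change of the 31 genes was -0.002, beside -0.006 over all genes, so the calls in either direction did not come with a shift of the whole group. Only 1 lower gene, CPT1A, remained when control replicate 2 or 3 or silenced replicate 2 or 3 was left out, since ACOX2 and ACOX3 then no longer passed. Of the 5 higher genes, 4 still passed in every one of these 6 leave-one-out fits, the exception being ACADM.

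**Figure D1:**
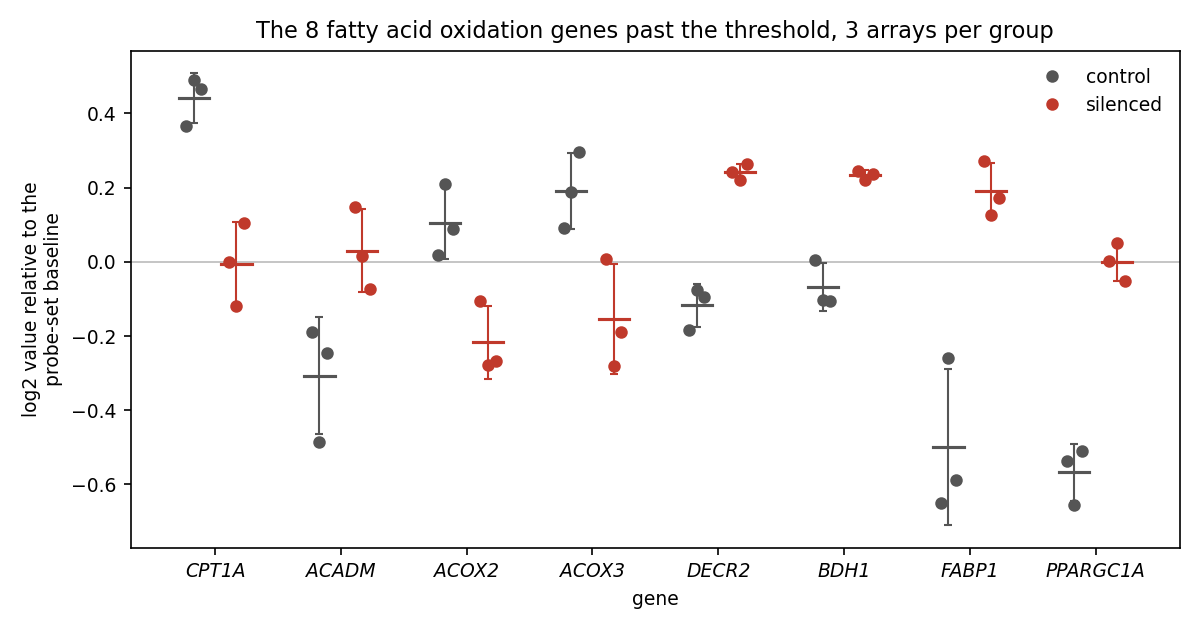
The y axis gives the log2 value relative to the probe-set baseline and the x axis the 8 genes past the threshold. Points are the 3 control (grey) and 3 silenced (red) arrays, with mean and SD. The groups do not overlap in any of the 8 genes, which were picked by a test on these same arrays. Over all genes 29.3% show no overlap. FABP1 and PPARGC1A show the widest gaps.

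The carnitine shuttle, which brings long acyl chains into the mitochondrion, held the largest fall. CPT1A (Entrez gene 1374), the outer-membrane acyltransferase that commits acyl chains to entry, stood at 0.365, 0.491 and 0.467 in the control arrays and at 0, -0.12 and 0.105 in the silenced arrays. All 3 silenced arrays lay below all 3 control arrays. The means were 0.441 ± 0.067 and -0.005 ± 0.113 (SD, n = 3 each). CPT1A fell by 0.45 on the log2 scale, 1.36-fold (SE 0.071, limma adjusted p = 0.0034), and its 2 probe sets fell by 0.45 and 0.44, both past the threshold. The later steps of the shuttle did not pass. CPT2, the inner-membrane acyltransferase, had a change of -0.002 with a 95% interval of -0.17 to 0.17. SLC25A20, the carnitine and acylcarnitine exchanger, had a change of 0.04 with an interval of -0.12 to 0.20.

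The acyl-CoA dehydrogenases, which open the mitochondrial cycle and differ in the chain length they prefer, did not move as a block. ACADM (Entrez gene 34), the medium-chain enzyme, stood at -0.188, -0.486 and -0.246 in the control arrays and at 0.148, 0.016 and -0.074 in the silenced arrays. The groups did not overlap, and control replicate 2 was the lowest array. ACADM rose by 0.34, 1.26-fold (SE 0.09, limma adjusted p = 0.039), and all 7 of its probe sets had a change above 0, from 0.26 to 0.37, of which 2 passed. ACADM no longer passed when control replicate 2 (change 0.25, adjusted p = 0.11), control replicate 3 (0.37, adjusted p = 0.074), silenced replicate 1 (0.28, adjusted p = 0.12) or silenced replicate 2 (0.34, adjusted p = 0.097) was left out. Nor did it pass on its most variable probe set (0.36, adjusted p = 0.097).

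The other 4 dehydrogenases did not pass. ACADS, the short-chain enzyme, had a change of -0.21 (limma adjusted p = 0.16), and its 2 probe sets gave -0.35 and -0.08. ACADVL, the very-long-chain enzyme of the inner membrane, had a change of -0.16 (adjusted p = 0.16), and ACADL, the long-chain enzyme, -0.15 (adjusted p = 0.11). In ACADL and ACADVL every silenced array lay below every control array, in ACADS the groups overlapped, and the 95% intervals of all 3 genes lay below 0 before adjustment. ACAD9, which also assists the assembly of respiratory complex I, had a change of 0.10 (adjusted p = 0.47).

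The hydration, second dehydrogenation and thiolysis steps of the mitochondrion showed no call, 0 of 5 genes, and their changes lay between -0.03 and 0.11. Over all genes 13.3% were called, so 5 genes without a call do not set these steps apart. HADHA and HADHB encode the alpha and beta subunits of the trifunctional protein, which carries out these steps on long chains. HADHA stood at -0.082, 0.06 and 0.028 in the control arrays and at 0.09, -0.036 and 0.024 in the silenced arrays, so the groups overlapped, and its change was 0.02 (95% interval -0.12 to 0.16, limma adjusted p = 0.88). HADHB had a change of 0.11 (interval -0.02 to 0.25, adjusted p = 0.28), and all 5 of its probe sets had a change above 0. The genes of both subunits start back to back on chromosome 2, with 306 bases between their RefSeq starts, so they share 194 of the 250 bases before each start. The bases before HADHB are printed because most of them also lie before HADHA, and neither gene passed the test (GRCh38.p14, chr2:26244689-26244938, plus strand).
HADHB: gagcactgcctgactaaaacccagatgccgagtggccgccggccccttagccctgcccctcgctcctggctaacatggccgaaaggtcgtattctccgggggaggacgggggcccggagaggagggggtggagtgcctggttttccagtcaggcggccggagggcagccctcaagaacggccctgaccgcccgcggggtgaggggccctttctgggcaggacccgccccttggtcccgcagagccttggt
HADH, the short-chain hydroxyacyl-CoA dehydrogenase, ECHS1, the short-chain enoyl-CoA hydratase, and ACAA2, the mitochondrial thiolase, had changes of -0.03, 0.01 and -0.001 (adjusted p = 0.88, 0.95 and 0.995). ACAA2 stood at -0.006, 0.106 and 0.12 in the control arrays and at 0.138, 0 and 0.077 in the silenced arrays.

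Electron transfer flavoprotein passes electrons from the acyl-CoA dehydrogenases to the respiratory chain. Its beta subunit gene ETFB stood at 0.093, 0.283 and 0.173 in the control arrays and at -0.031, -0.119 and 0 in the silenced arrays. The groups did not overlap, and the change of -0.23 missed the threshold narrowly (SE 0.066, limma adjusted p = 0.051). It passed without control replicate 1 (change -0.28, adjusted p = 0.034). ETFB passed in no other alternative fit, and without control replicate 2 its change was -0.18 (limma adjusted p = 0.16). ETFA, the alpha subunit, and ETFDH, which hands the electrons to ubiquinone, had changes of -0.04 and -0.09 (adjusted p = 0.76 and 0.61). Of the enzymes that prepare unsaturated chains, ECI1, an enoyl-CoA isomerase, had a change of -0.03 (adjusted p = 0.8), with its only probe set at exactly 0 on all 3 silenced arrays, and DECR1 is described beside its peroxisomal counterpart. ECI2, an isomerase found in both organelles, had a change of -0.08 (adjusted p = 0.44).

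**Figure D2:**
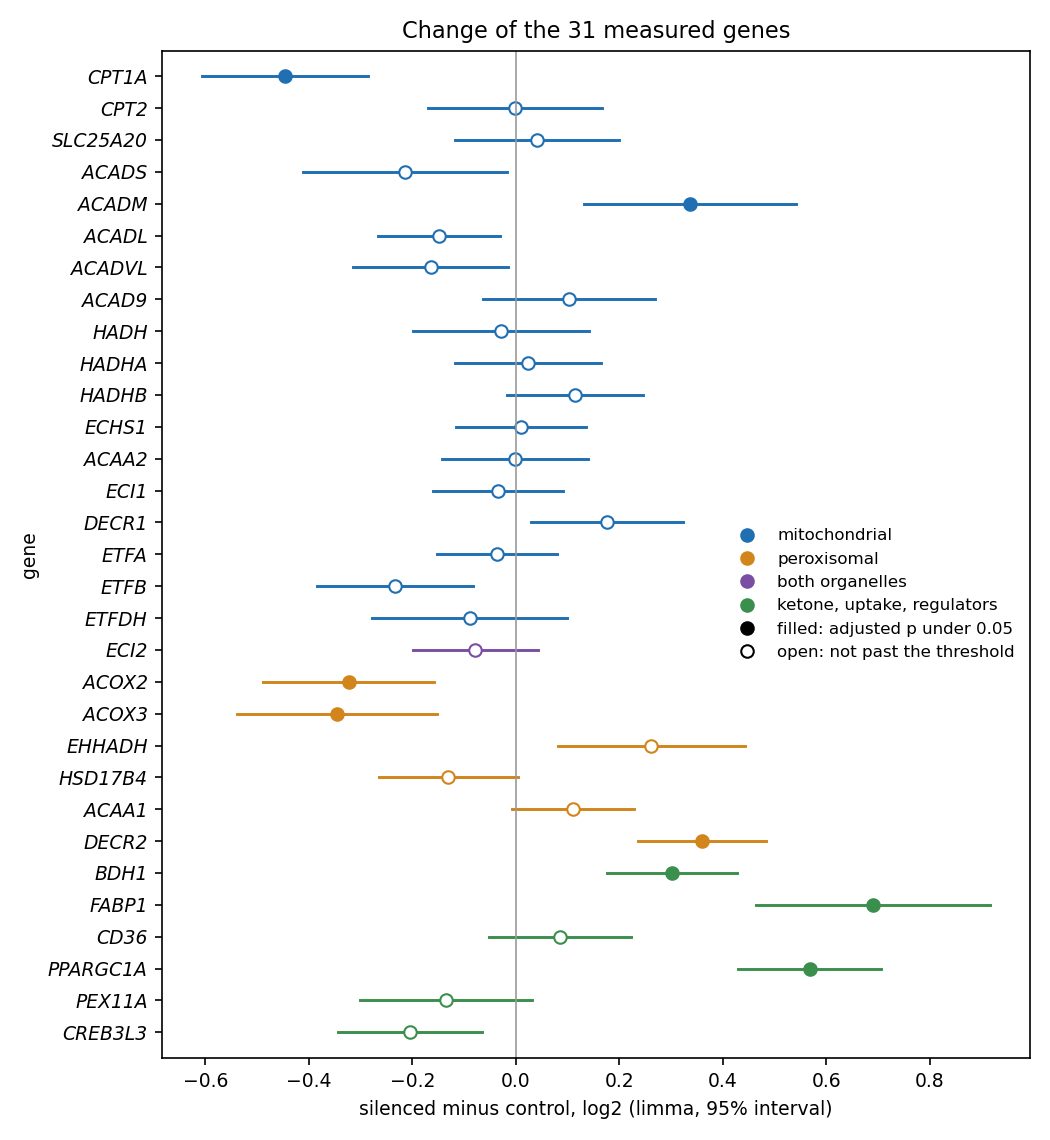
The x axis gives the change on the log2 scale (silenced minus control) with limma's 95% interval, and the y axis the 31 genes ordered by role. Colours give the organelle, and ketone, uptake and regulator genes, BDH1 among them, have a colour of their own. Filled points passed the threshold. The peroxisomal genes lie from -0.35 to 0.36. Of the genes coloured as mitochondrial CPT1A and ACADM are the 2 filled points, at -0.45 and 0.34.

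Both acyl-CoA oxidases, which open the peroxisomal cycle, were lower. ACOX2 (Entrez gene 8309), the oxidase of branched chains and bile acid intermediates, stood at 0.018, 0.209 and 0.089 in the control arrays and at -0.105, -0.279 and -0.268 in the silenced arrays, with no overlap. It fell by 0.32, 1.25-fold (SE 0.073, limma adjusted p = 0.018). ACOX3 (Entrez gene 8310), another oxidase of branched chains, stood at 0.09, 0.188 and 0.295 in the control arrays and at 0.007, -0.282 and -0.188 in the silenced arrays. Silenced replicate 1 was the highest of its group and still below every control array. ACOX3 fell by 0.35, 1.27-fold (SE 0.085, limma adjusted p = 0.029). Each oxidase was measured by 1 probe set, and both calls were lost without control replicate 2 (changes -0.27 and -0.35), control replicate 3 (-0.33 and -0.29), silenced replicate 2 (-0.29 and -0.28) and silenced replicate 3 (-0.30 and -0.33). ACOX3 also missed the threshold when every gene was taken from its most variable probe set (adjusted p = 0.05043).

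Of the later peroxisomal enzymes, the bifunctional enzymes and the thiolase did not pass (0 of 3, where 13.3% of all genes were called). EHHADH, the bifunctional enzyme of straight chains, stood at -0.3, -0.316 and -0.05 in the control arrays and at 0.092, -0.026 and 0.052 in the silenced arrays. No control array reached the silenced arrays, and the change of 0.26 did not pass (SE 0.08, limma adjusted p = 0.065). It passed without control replicate 3 (0.35, adjusted p = 0.015) and without probe sets that hold an exact 0 on 2 or more arrays (0.35, adjusted p = 0.045). EHHADH passed in no other alternative fit, and without control replicate 2 its change was 0.21 (limma adjusted p = 0.21). HSD17B4, the bifunctional enzyme of branched chains and bile acid intermediates, had a change of -0.13 (adjusted p = 0.22), with all 3 probe sets below 0 and no overlap of the groups. ACAA1, the peroxisomal thiolase, stood at -0.118, -0.084 and -0.161 in the control arrays and at -0.014, -0.025 and 0.01 in the silenced arrays. Its groups did not overlap, its change was 0.11 and it did not pass (adjusted p = 0.24).

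DECR2 (Entrez gene 26063), the peroxisomal dienoyl-CoA reductase that prepares polyunsaturated chains, stood at -0.183, -0.076 and -0.094 in the control arrays and at 0.241, 0.221 and 0.264 in the silenced arrays. The silenced arrays lay close together and far above the controls, and DECR2 rose by 0.36, 1.28-fold (SE 0.055, limma adjusted p = 0.0028), on 1 probe set. DECR1, the mitochondrial reductase of the same reaction, stood at -0.164, 0.012 and 0 in the control arrays and at 0.111, 0.094 and 0.171 in the silenced arrays. Its groups did not overlap either, and its change of 0.18 did not pass (SE 0.064, adjusted p = 0.12).

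**Figure D3:**
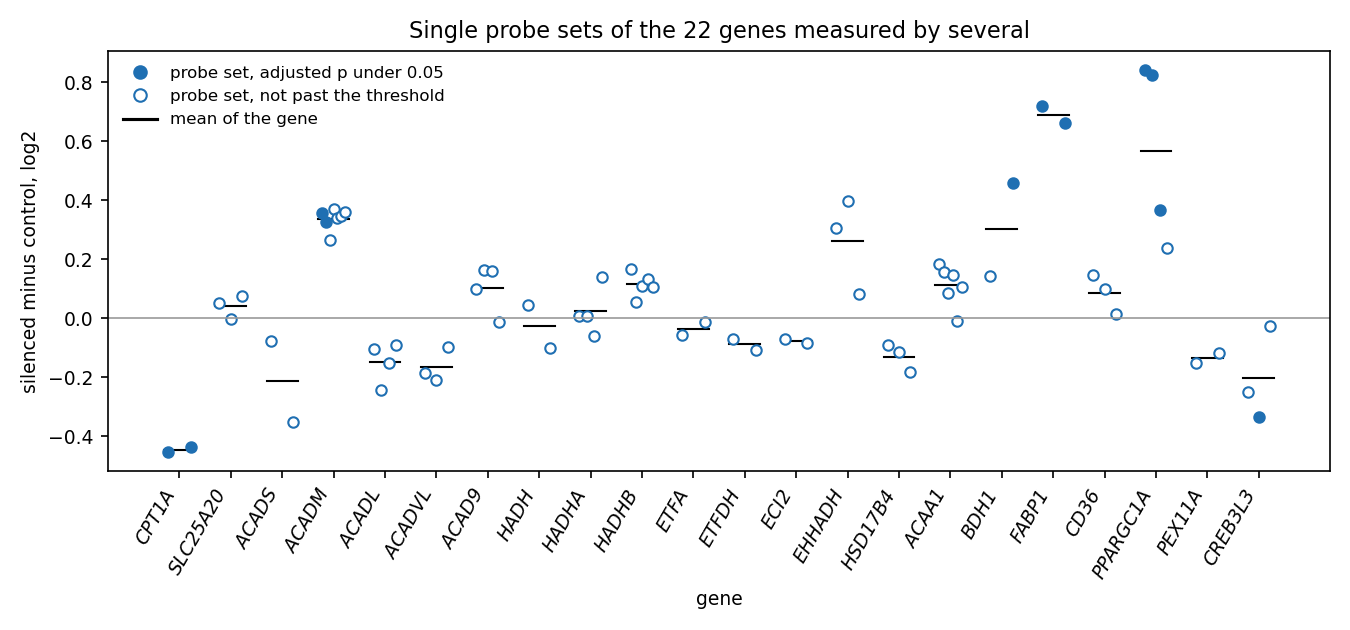
The y axis gives the change of single probe sets on the log2 scale, and the x axis the 22 genes with several probe sets. Filled points passed the threshold over all probe sets, and the bar is the mean of the gene. In 17 of the 22 genes all probe sets had the same sign, and those of PPARGC1A range from 0.24 to 0.84.

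Mitochondrial and peroxisomal enzymes were set side by side. The mitochondrial genes held 1 higher, 1 lower and 16 that did not pass, so 11.1% of 18 were called. These 18 leave out BDH1, a mitochondrial enzyme of ketone bodies, which was called higher (change 0.30, limma adjusted p = 0.0072). Counting BDH1 in would raise the mitochondrial share. The peroxisomal genes held 1 higher, 2 lower and 3 that did not pass, so 50% of 6 were called, beside 13.3% of all genes. The median changes were near 0 for both organelles, as for all genes, -0.02 for the mitochondrial and -0.01 for the peroxisomal genes. The peroxisomal median was -0.05 with the most variable probe set and -0.08 with ECI2 counted in. The mitochondrial median turned to 0.0104 without control replicate 2 and to 0.008 without silenced replicate 2. The peroxisomal median turned to 0.0129 without control replicate 2 and to 0.008 without silenced replicate 1. It was 0.0146 (2 genes) with plain probe sets alone, those whose identifier ends in _at with no letter code before it. The peroxisomal genes went both ways, from -0.35 to 0.36, with no overlap between the groups in 6 of 6. Among the mitochondrial genes 7 of 18 had no overlap, 38.9%, where 29.3% of all genes did. With 6 peroxisomal genes these shares are a description, and the difference between the organelles was not tested over the lists. Per array, the median of the mitochondrial genes ran at -0.048, 0.068 and 0.048 in control and 0.007, -0.05 and 0.031 in silenced arrays. That of the peroxisomal genes was -0.077, -0.011 and -0.035 in control and -0.004, -0.081 and -0.025 in silenced arrays, so neither median separated the groups.

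Counterpart genes of like reactions were compared within each array, peroxisomal minus mitochondrial, in 4 pairs chosen after their values were seen. Since each probe set is centred on its own, the zero of such a difference is arbitrary and only its shift between the groups can be read. For DECR2 minus DECR1 the control arrays gave differences of -0.019, -0.088 and -0.094 and the silenced arrays of 0.13, 0.127 and 0.093. All 3 silenced arrays lay above all 3 control arrays, a shift of 0.18 (control SD 0.041, silenced SD 0.021, n = 3 each, two-sided exact permutation p = 0.1, the smallest 3 against 3 arrays can give, 0.13 after Benjamini-Hochberg adjustment over the 4 pairs). For EHHADH minus HADHA the shift was 0.24, with control differences from -0.376 to -0.079 and silenced differences from 0.003 to 0.029 (exact permutation p = 0.1, adjusted 0.13). HSD17B4 minus HADHA shifted the other way, by -0.15, with control differences from -0.047 to 0.045 and silenced differences from -0.288 to -0.083 (exact permutation p = 0.1, adjusted 0.13). For ACAA1 minus ACAA2 the shift was 0.11 and the groups overlapped (exact permutation p = 0.2). A design of this size cannot reach 0.05 in any pair, so these shifts are a description.

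**Figure D4:**
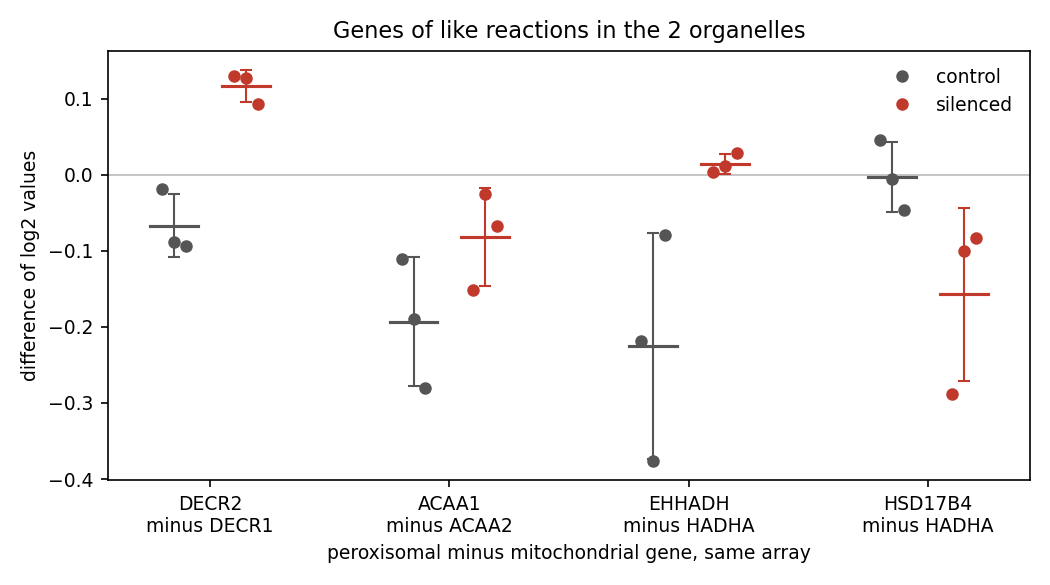
The y axis gives the difference of the log2 values of 2 genes on the same array, and the x axis the 4 pairs of a peroxisomal and a mitochondrial gene. Points are the 3 control (grey) and 3 silenced (red) arrays, with mean and SD. The groups are apart in 3 pairs, downward in HSD17B4 minus HADHA, and overlap in ACAA1 minus ACAA2. The zero of the axis is arbitrary.

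BDH1 (Entrez gene 622), the mitochondrial dehydrogenase that interconverts acetoacetate and beta-hydroxybutyrate, stood at 0.006, -0.104 and -0.105 in the control arrays and at 0.245, 0.22 and 0.237 in the silenced arrays. The groups were well apart, and BDH1 rose by 0.30, 1.23-fold (SE 0.056, limma adjusted p = 0.0072). Its 2 probe sets differed in size, 0.46 (adjusted p = 0.0026) and 0.14 (adjusted p = 0.3). The probe set that passed holds an exact 0 on 2 control arrays, and without such probe sets the gene had a change of 0.14 and did not pass (adjusted p = 0.24).

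Among the genes of fatty acid uptake and binding, FABP1 showed the largest change of the 31. FABP1 (Entrez gene 2168), the liver fatty acid binding protein, carries fatty acids through the cytosol. It stood at -0.651, -0.259 and -0.588 in the control arrays and at 0.273, 0.127 and 0.173 in the silenced arrays. Control replicate 2 was the highest of its group and still below every silenced array. The means were -0.499 ± 0.21 and 0.191 ± 0.075 (SD, n = 3 each). FABP1 rose by 0.69, 1.61-fold (SE 0.1, limma adjusted p = 0.002), and both probe sets passed with 0.72 and 0.66. On control replicates 2 and 3 these probe sets hold the same value to 3 decimals, so whether they are independent measurements is not known. CD36, a fatty acid transporter of the plasma membrane, had a change of 0.09 (95% interval -0.05 to 0.22, adjusted p = 0.46).

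PPARGC1A (Entrez gene 10891), which encodes the coactivator PGC-1 alpha of mitochondrial biogenesis and fatty acid oxidation, had the lowest adjusted p of the 31. It stood at -0.538, -0.654 and -0.51 in the control arrays and at 0.003, 0.051 and -0.052 in the silenced arrays, with a wide gap between the groups. PPARGC1A rose by 0.57, 1.48-fold (SE 0.061, limma adjusted p = 0.00039). Of its 4 probe sets 3 passed. They rose by 0.84, 0.83 and 0.37, and the fourth had a change of 0.24 (adjusted p = 0.19). The probe set with the largest rise holds an exact 0 on 2 silenced arrays. Without such probe sets PPARGC1A rose by 0.48 and still passed (limma adjusted p = 0.0019).

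The other regulators had changes below 0. CREB3L3, a liver transcription factor that is released from the endoplasmic reticulum membrane in fasting, stood at 0.153, 0.173 and 0.246 in the control arrays and at -0.102, 0.046 and 0.014 in the silenced arrays. The groups did not overlap, and the change of -0.20 did not pass (SE 0.061, limma adjusted p = 0.061). Its 3 probe sets gave -0.34, which passed (adjusted p = 0.012), -0.25 and -0.03. CREB3L3 passed with the most variable probe set (-0.34, adjusted p = 0.022) and without probe sets that hold an exact 0 on 2 or more arrays (-0.29, adjusted p = 0.012). It passed in no other alternative fit, and without silenced replicate 1 its change was -0.16 (limma adjusted p = 0.19). PEX11A, a membrane protein of peroxisome division, had a change of -0.13 (adjusted p = 0.31), and its 2 probe sets gave -0.15 and -0.12.

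Upstream regions of the genes were read from RefSeq, whose table holds 37 windows for 25 of the 32 genes. The 250 bases before each start were searched on both strands for AGGTCA, the hexamer of nuclear receptor elements, for a direct repeat of AGGNCA with 1 base of any kind between the copies, the arrangement bound by PPAR and RXR, and for TGACGTCA, the cyclic AMP response element. The hexamer can lie inside the repeat. AGGTCA was found in 2 of the 37 windows, before FABP1 and CREB3L3, and in 12.1% of all 35116 windows of that length. The direct repeat was found in 1 of the 37 windows, before CREB3L3, and in 0.268% of all windows. Only exact matches were counted. Before FABP1 the hexamer and the bases beside it differ from the repeat in its first letter only. How many windows hold such a near match was not counted. TGACGTCA was found in 3 of the 37 windows, before ACAD9 and before both starts of ACOX3, and in 1.65% of all windows. A match is a description of these letters and no measured binding. Shown 5′ to 3′ along the gene, in GRCh38.p14, with matches in capitals, are FABP1 (the largest rise, chr2:88128063-88128312, minus strand), CREB3L3 (chr19:4153381-4153630, plus strand, the window with the repeat), CPT1A (the largest fall, chr11:68844278-68844527, minus strand) and ACOX3 (chr4:8440724-8440973, minus strand, its more distal start).
FABP1: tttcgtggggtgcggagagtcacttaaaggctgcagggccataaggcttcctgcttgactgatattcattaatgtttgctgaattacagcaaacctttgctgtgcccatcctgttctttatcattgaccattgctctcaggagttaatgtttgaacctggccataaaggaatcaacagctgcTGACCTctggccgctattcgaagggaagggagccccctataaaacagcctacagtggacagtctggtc
CREB3L3: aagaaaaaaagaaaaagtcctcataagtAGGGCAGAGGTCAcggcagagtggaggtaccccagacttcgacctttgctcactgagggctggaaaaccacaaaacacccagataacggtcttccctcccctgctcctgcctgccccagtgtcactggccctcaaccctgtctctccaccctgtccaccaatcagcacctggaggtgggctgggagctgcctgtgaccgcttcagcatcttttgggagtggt
CPT1A: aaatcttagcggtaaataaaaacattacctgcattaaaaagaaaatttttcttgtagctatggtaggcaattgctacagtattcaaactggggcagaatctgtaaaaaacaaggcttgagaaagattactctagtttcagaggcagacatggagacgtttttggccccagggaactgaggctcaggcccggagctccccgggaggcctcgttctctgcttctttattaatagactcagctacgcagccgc
ACOX3: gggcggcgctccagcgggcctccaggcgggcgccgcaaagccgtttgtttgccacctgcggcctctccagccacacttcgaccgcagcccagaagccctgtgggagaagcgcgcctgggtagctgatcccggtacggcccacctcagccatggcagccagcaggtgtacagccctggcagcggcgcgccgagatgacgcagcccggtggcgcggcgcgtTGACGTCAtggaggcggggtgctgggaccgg
In FABP1 the hexamer lies on the opposite strand and begins 68 bases before the start. The repeat of CREB3L3 begins 222 bases before the start, and the element of ACOX3 31 bases before. The CPT1A and HADHB windows hold no match to these letters, which says nothing on the factors that act there.

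Further genes of fatty acid oxidation were taken from a wider list. This list and those below were chosen with earlier results of these data known, so their shares are a description. In the wider list 6 of 26 measured genes were higher, 1 was lower and 19 did not pass. That is 26.9% called beside 13.3% of all genes, with a median change of 0.07. SLC27A2, which activates and takes up very long chains, rose by 1.43, 2.70-fold (SE 0.073, limma adjusted p = 7.2e-06), on 1 probe set. Its values ran from -0.681 to -0.516 in the control arrays and from 0.746 to 0.931 in the silenced arrays. ABCD3, a peroxisomal importer of acyl chains, rose by 0.92 and CROT, the peroxisomal carnitine octanoyltransferase, by 0.43. With plain probe sets alone ABCD3 had a change of 0.25 (adjusted p = 0.38) and CROT of 0.29 (adjusted p = 0.14), neither of which passed. ACADSB, a dehydrogenase of short branched chains, rose by 0.69 and PCCA, a subunit of propionyl-CoA carboxylase, by 0.42. The gene that was lower was ACSL5, an acyl-CoA synthetase, which fell by 0.37 (adjusted p = 0.0033, named after its value was seen). ACSL1, another acyl-CoA synthetase, went the other way and rose by 0.35 (limma adjusted p = 0.011, also named after its value was seen).

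Of 9 measured further genes of ketone and acetate metabolism 2 were higher and 7 did not pass, 22.2% called, with a median of 0.08. ACSS3, an acyl-CoA synthetase of short chains, rose by 0.64 (limma adjusted p = 0.00014), and BDH2, a cytosolic hydroxybutyrate dehydrogenase, by 0.37 (0.63 on its most variable probe set). Among 24 other regulators and target genes, 1 was higher and 3 lower, while 20 did not pass, 16.7% called, with a median of 0.01. ANGPTL4, a secreted lipase inhibitor and PPAR target, fell by 1.29, 2.45-fold (adjusted p = 0.0003), on 1 probe set. PLIN2, a lipid droplet protein, fell by 0.41. LPIN1, a phosphatidate phosphatase and coactivator, rose by 0.30. VNN1, a pantetheinase, fell by 0.22, and no longer passed when any array other than control replicate 1 was left out (changes from -0.23 to -0.20). The change of VNN1 was -0.50 on its most variable probe set (adjusted p = 0.0086) and -0.13 with plain probe sets (adjusted p = 0.4).

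Genes of the organelles outside fatty acid oxidation went as follows. Of 37 subunits of the respiratory chain none was higher (0), 3 were lower and 34 did not pass, 8.11% called, with a median of 0.03. ATP5MC1, a subunit of ATP synthase, fell by 0.46 (limma adjusted p = 0.0013). NDUFV1 of complex I and SDHD of complex II fell by 0.21 each. ATP5MC1 and NDUFV1 were each measured by 1 probe set. The call of NDUFV1 was lost without any 1 of the 6 arrays (changes from -0.23 to -0.20), and that of SDHD without control replicates 2 and 3 and each silenced replicate (-0.23 to -0.19). Among 18 genes of peroxisome biogenesis and membranes, 2 were higher and 2 lower, while 14 did not pass, 22.2% called, with a median of -0.02. PEX19, a chaperone of peroxisomal membrane proteins, rose by 0.75 (1.76 on its most variable probe set). PEX7, the import receptor of the thiolase ACAA1, rose by 0.49 on 1 probe set. PXMP4, a membrane protein, fell by 0.36 (-0.58 on its most variable probe set) and PEX3, the docking site of PEX19, fell by 0.28. PEX7 no longer passed when control replicate 2 was left out (0.46), and PEX3 when control replicate 3 (-0.23) or silenced replicate 2 or 3 (-0.28 and -0.27) was.

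**Figure D5:**
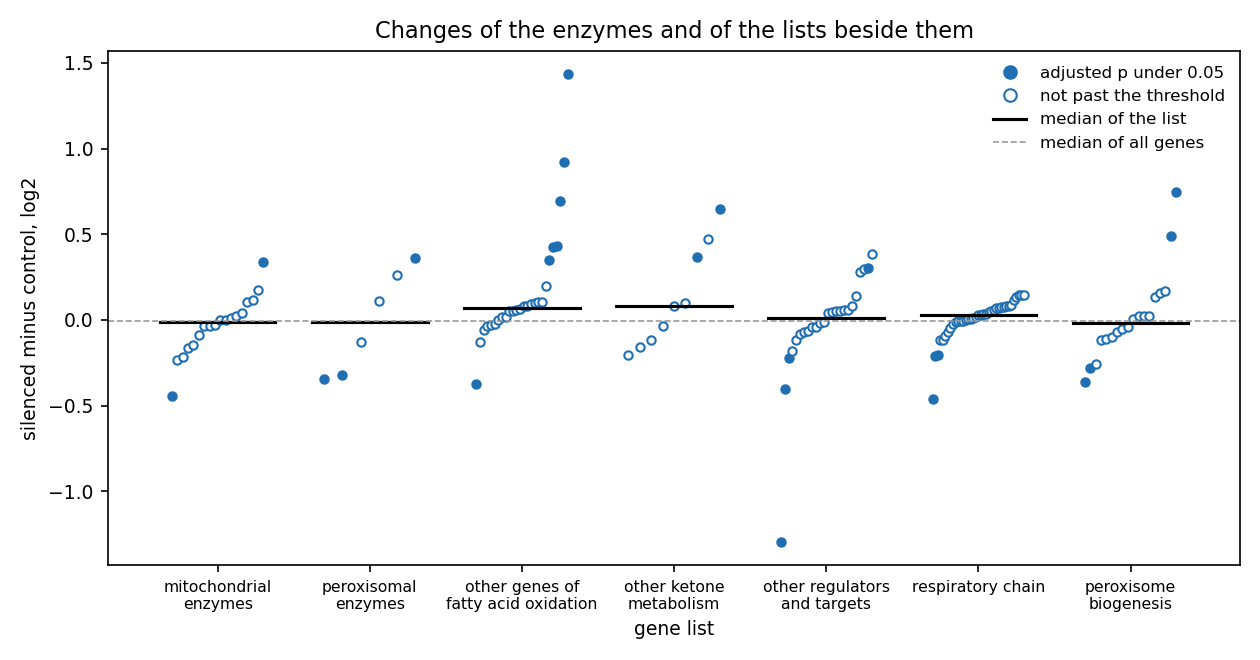
The y axis gives the change on the log2 scale, and the x axis 7 lists. Points are genes, filled where they passed the threshold, the bar is the median of the list and the dashed line that of all genes. The list medians lie between -0.02 and 0.08, and SLC27A2 and ANGPTL4 lie farthest out at 1.43 and -1.29, each on 1 probe set.

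Markers of hepatocytes, and with them AFP, a gene of fetal liver and liver cancer, are given beside FABP1, which is itself a hepatocyte gene. Of 11 measured markers 6 were higher, 0 lower and 5 did not pass, 54.5% called beside 13.3% of all genes, with a median of 0.20. These markers too were chosen with earlier results of these data known, so the share is a description. APOA1 rose by 1.14, FGG by 0.99, AFP by 0.70, SERPINA1 by 0.40 and APOB by 0.38. APOB had a change of 0.21 with plain probe sets and did not pass (adjusted p = 0.3). TF, which encodes transferrin, had a change of -0.19 and did not pass (limma adjusted p = 0.075), with every silenced array below every control array. ALB, AHSG, RBP4 and TTR had changes of 0.16, 0.17, 0.12 and 0.06 and did not pass. The part of these markers in the changes above was not tested. Of the markers of other cell types, 1 of 7 fibroblast and stellate cell genes was higher, COL1A2 by 0.55 (0.83 on its most variable probe set), and 0 of 6 endothelial and 0 of 6 leukocyte genes passed. The summed level of these lists cannot be given from centred values.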

How the data were processed

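RNA of 6 Huh7 samples, 3 labelled control and 3 KCa3.1 silenced, was hybridised to 1-colour Affymetrix arrays after Trizol extraction and biotin labelling, per the labels' protocols. The authors deposited log2 values made with RMA, per the submitters' processing notes (version not given). The values lie around 0, and 80.6% of the probe sets hold an exact 0 on at least 1 array, so probe sets appear to have been centred after RMA. The log base is taken from RMA's usual output, and the arrays behind the baseline are not known. Centring does not affect differences between groups, and how the exact zeros arose, which can narrow the spread, is not known. Of the 79 probe sets of the genes described, 11 hold an exact 0 on 2 or more arrays.

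Of 49395 probe sets, 102 controls were left out. Of the rest 44988 had 1 gene symbol in the platform annotation, 1832 several and 2473 none here. Genes took the mean of their probe sets with 1 symbol (18132 genes, 6398 from 1 probe set). limma 3.58.1 in R 4.3.3 (lmFit, eBayes) was fitted on 6 arrays with group as the term, adjusted by Benjamini-Hochberg over all genes, or over all probe sets for single probe sets (10.7% called). No filter on dim probes was possible. The fit was tested on simulated data with independent normal noise. Those data hold no exact zeros and no deviations shared between arrays, so the test does not cover either. Alternatives were the most variable probe set, plain probe sets, rescaled arrays, robust eBayes and probe sets with zeros left out. A replicate block and each array left out were further ones. Plain probe sets are those whose identifier ends in _at with no letter code, so sets such as _a_at were left out whatever their specificity. With 3 arrays a group, their number limits the precision.

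The 32 genes, their organelles and the further lists were chosen with earlier results of these data known, from textbook roles. All 31 measured genes are described, with array values for those past the threshold, for counterparts of these, for those with a probe set past it and for some that lay near it. From each further list up to 5 genes past the threshold with the largest changes are named, and ACSL5 and ACSL1 besides. Promoter sequences are RefSeq's (GRCh38.p14). Genes of the lists without a probe set of 1 symbol are not analysed here.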

Additional observations from a re-analysis of the deposited data

How the results depend on the processing

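The counts of 5 higher and 3 lower genes of fatty acid oxidation were the same with arrays quantile normalised again, with the gene median of each array at 0, with robust eBayes and with the replicate number as a block, and the same 8 genes were called in each of these. The replicate block gave 2065 changed genes in all, against 2418 without it. The numbers do not pair the arrays: same-numbered arrays deviated with r of -0.096 to -0.04, and 0 of the 6 arrays correlated best with its own number. The highest values were between arrays of different numbers, 0.381 for control 3 with silenced 1, 0.381 for control 2 with silenced 3 and 0.373 for control 1 with silenced 2, and no block follows these. The block ended the calls of VNN1, NDUFV1 and SDHD.

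Plain probe sets measured 8 of the genes, with 1 higher and 1 lower. With 8324 genes tested, they gave 570 changed genes in all (332 higher, 238 lower). ACOX2 and PPARGC1A kept their calls. The other 6 of the 8 called genes have no plain probe set, which does not make their probe sets unspecific. Plain probe sets ended the calls of ABCD3, CROT, PEX3, VNN1 and APOB. The most variable probe set ended the calls of ACADM, ACOX3 and NDUFV1, and CREB3L3 passed with it. Leaving out probe sets with zeros ended the calls of BDH1 and SDHD, and CREB3L3 and EHHADH then passed. Leaving out 1 array at a time gave 4 to 5 higher and 1 to 4 lower genes of fatty acid oxidation, 736 to 1167 lower genes in all and 3252 to 4592 changed probe sets, against 5261. The peroxisomal median was -0.0495 with the most variable probe set and -0.0782 with ECI2 added, against -0.00977, and the cause was not tested beyond the added gene.

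Signs turned for genes whose change was near 0. KCNN4 gave 0.021 with the most variable probe set, 0.0014 with quantile normalisation and 0.0034 with gene medians at 0, and -0.0445 to 0.0548 with 1 array left out. HADH gave 0.0433 with the most variable probe set and SLC25A20 -0.00195 with plain probe sets. With quantile normalisation and with gene medians at 0, CPT2 gave 0.0121 and 0.0017 and ACAA2 0.0085 and 0.0026. With 1 array left out the changes ran from -0.0621 to 0.0503 for CPT2, from -0.0215 to 0.0776 for SLC25A20, from -0.0997 to 0.026 for HADH, from -0.0181 to 0.0547 for HADHA, from -0.0122 to 0.0434 for ECHS1, from -0.0408 to 0.0348 for ACAA2. None of these passed in any setting. Expression over background is unknown, so what a dim probe set could have hidden cannot be told.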
